A study of Arabidopsis thaliana with 4 samples.

Results

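The transcripts of 10 co-chaperone genes were followed among the 25819 genes of the deposited Arabidopsis thaliana table. They are the members of named co-chaperone families, listed with earlier results of these data known: HOP1, HOP2 and HOP3, BAG6, ROF1 and ROF2, SGT1A and SGT1B, and the J-protein genes AT2G20560 and AT1G71000. The RNA came from whole plantlets of the Columbia-0 accession aged 21 days, which carried either no mutation (WT) or a mutation of larp1. LARP1 is a La-related RNA-binding protein. For 15 min the plantlets stood in liquid MS medium with sucrose, either at their growth temperature of 20 °C or pre-warmed to 38 °C. The groups were therefore WT and larp1 at each temperature, and each was a pool of 6 to 8 plantlets and 1 library. The labels name neither the larp1 allele nor the number of lines. With 1 library a group, every difference below is between libraries, has no replicate check and carries no p-value. In whole plantlets, fewer cells of a type and less RNA per cell cannot be told apart.

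Co-chaperones pass client proteins between the chaperone machines HSP70 and HSP90 or set the pace of their ATP cycles. J proteins bring clients to HSP70 and stimulate its ATPase, and BAG proteins bind the HSP70 ATPase domain. HOP (HSP70-HSP90 organizing protein) bridges both chaperones through its tetratricopeptide repeats. ROF proteins are large FK506-binding immunophilins that bind HSP90 by the same kind of repeat, and SGT1 is an HSP90 partner best known in plants for keeping immune receptors stable. Many heat-shock genes are switched on by heat shock factors, which bind inverted repeats of the letters GAA called heat shock elements.

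Values are RPM, the authors' reads of an exon entry scaled to the library total, added up over the different entries of a gene. From the steps between values, the library totals came to 46065300 reads at 20 °C and 42608500 at 38 °C in WT. In larp1 they came to 74419700 and 44931500. These totals are inferred, and hold only if the values are true RPM. Log2 ratios were taken of RPM plus the worth of 1 read, and brackets hold 95% intervals that cover counting error only. A gene with at least 50 reads in 1 library of a comparison was compared. It was called where the difference reached 2-fold and the interval did not include 0. The targeted gene LARP1A (AT5G21160) had 37.1 and 33.1 RPM in the WT libraries at 20 and 38 °C against 9.21 and 9.29 RPM in those of larp1, which is 24.8% and 28.1% of the WT level. Leaf markers were abundant, their summed level running from 7361 RPM (larp1 at 38 °C) to 15911 RPM (WT at 20 °C). Root markers summed to 52.6 RPM in WT at 20 °C, 18.1 RPM in WT at 38 °C, 50.6 RPM in larp1 at 20 °C and 24.5 RPM in larp1 at 38 °C. Of the root markers, SCR, SHR and COBL9 were called lower and WOX5 higher with heat in both genotypes, SHR in larp1 losing its call at -0.94 under TMM scaling, which aligns the bulk of the genes, and the part of organ composition in the results below was not tested. Flower and seed markers summed to at most 0.28 and 0.25 RPM in any library, at or near 0.

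**Figure D1:**
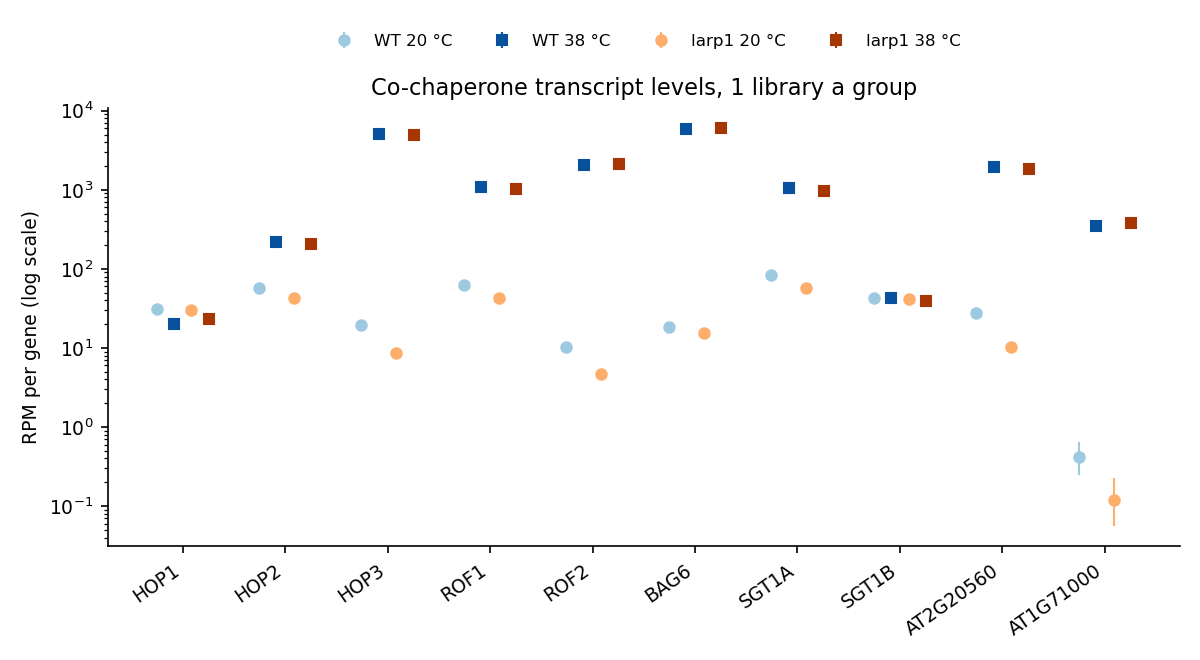
RPM per gene on a log scale for each of the 10 genes in the 4 libraries; circles are 20 °C, squares 38 °C, blue WT and orange to brown larp1, and bars are 95% counting intervals. HOP3, ROF1, ROF2, BAG6, SGT1A and both J-protein genes stand far higher in the 38 °C libraries, and HOP2 less so. SGT1B lies at nearly the same level in all 4, and HOP1 is lower at 38 °C, at 20.1 against 31.0 RPM in WT.

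Heat raised most of the group strongly in both genotypes. Of the 10 genes, 8 were called higher at 38 °C in WT and 0 lower. Among all 19387 genes compared in WT, 4.26% were called higher and 25% lower. The same 8 of 10 were called higher in larp1, where 4.19% of 20475 genes were called higher and 19.8% lower. The members' median log2 ratio was 5.11 in WT and 6.02 in larp1, against -0.51 and -0.43 over all genes compared. Together the 10 genes summed to 352 RPM in WT at 20 °C and 17574 RPM at 38 °C, and to 255 and 17608 RPM in larp1. Under TMM scaling the log2 heat ratio of every gene was 0.51 higher in WT and 0.39 higher in larp1. The share of calls that were higher then moved from 14.6% to 37.9% in WT and from 17.5% to 37.9% in larp1, while the count of members called stayed at 8 in each genotype.

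HOP3 (AT4G12400, chromosome 4, 7338018 to 7341363, minus strand) is the heat-inducible HOP of Arabidopsis. Its transcript stood at 19.4 RPM in WT at 20 °C, 5004 RPM in WT at 38 °C, 8.67 RPM in larp1 at 20 °C and 4906 RPM in larp1 at 38 °C. Both 38 °C libraries were high and close to each other, and larp1 was the lower of the 20 °C libraries. The rise was 258-fold in WT, a log2 ratio of 8.01 [7.92, 8.11], and 565-fold in larp1, a log2 ratio of 9.14 [9.03, 9.26]. By heat ratio it was number 23 from the top of 19387 genes in WT and number 19 of 20475 in larp1.

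HOP2 (AT1G62740, chromosome 1, 23230922 to 23233543, plus strand) stood at 56.9 RPM in WT at 20 °C, 217 RPM in WT at 38 °C, 42.9 RPM in larp1 at 20 °C and 204 RPM in larp1 at 38 °C. It rose 3.81-fold in WT, with a log2 ratio of 1.93 [1.87, 1.99], and 4.75-fold in larp1, with a log2 ratio of 2.25 [2.19, 2.31]. It was the least heat-responsive of the 8 genes called.

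HOP1 (AT1G12270, chromosome 1, 4172035 to 4174730, plus strand) was not called in either genotype. It stood at 31.0 RPM in WT at 20 °C, 20.1 RPM in WT at 38 °C, 30.1 RPM in larp1 at 20 °C and 23.5 RPM in larp1 at 38 °C. Its log2 heat ratio was -0.62 [-0.75, -0.50] in WT and -0.35 [-0.46, -0.25] in larp1, close to the median of all genes, and TMM scaling moved it to -0.12 in WT and to 0.04, the other side of 0, in larp1. The HOP family therefore held a gene near the general trend beside a gene among the strongest heat responses. The proteins are alike: HOP1 and HOP2 share 82.8% of aligned residues, HOP1 and HOP3 76.1%, and HOP2 and HOP3 75.7%. No stretch of 100 bases, the read length, is common to the transcripts of any of the 3. HOP2 and HOP3 do share such stretches with a neighbour that overlaps them, AT1G62750 in 11 of 1884 windows and AT4G12390 in 64 of 2718, where reads cannot be assigned without strand.

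The immunophilin ROF1 (FKBP62, AT3G25230, chromosome 3, 9188096 to 9191630, plus strand) is known in Arabidopsis to bind HSP90.1 and to act with the heat shock factor HSFA2 in lasting thermotolerance. ROF1 stood at 62.1 RPM in WT at 20 °C, 1072 RPM in WT at 38 °C, 43.3 RPM in larp1 at 20 °C and 1021 RPM in larp1 at 38 °C. The rise was 17.2-fold in WT, a log2 ratio of 4.11 [4.05, 4.16], and 23.6-fold in larp1, a log2 ratio of 4.56 [4.51, 4.61]. The entries of ROF1 include near-copies of the same exons, so its summed level counts some reads repeatedly; averaged over its 2 transcripts the level was 51.5 RPM in WT at 20 °C and 870 RPM in WT at 38 °C.

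ROF2 (FKBP65, AT5G48570, chromosome 5, 19690461 to 19693845, minus strand), known to modulate the same pathway, started far lower and ended higher. It stood at 10.2 RPM in WT at 20 °C, 2067 RPM in WT at 38 °C, 4.67 RPM in larp1 at 20 °C and 2131 RPM in larp1 at 38 °C. It rose 203-fold in WT, a log2 ratio of 7.66 [7.54, 7.80], and 455-fold in larp1, a log2 ratio of 8.83 [8.68, 8.99]. ROF1 and ROF2 proteins share 75.2% of aligned residues, and their transcripts share no 100-base stretch.

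**Figure D2:**
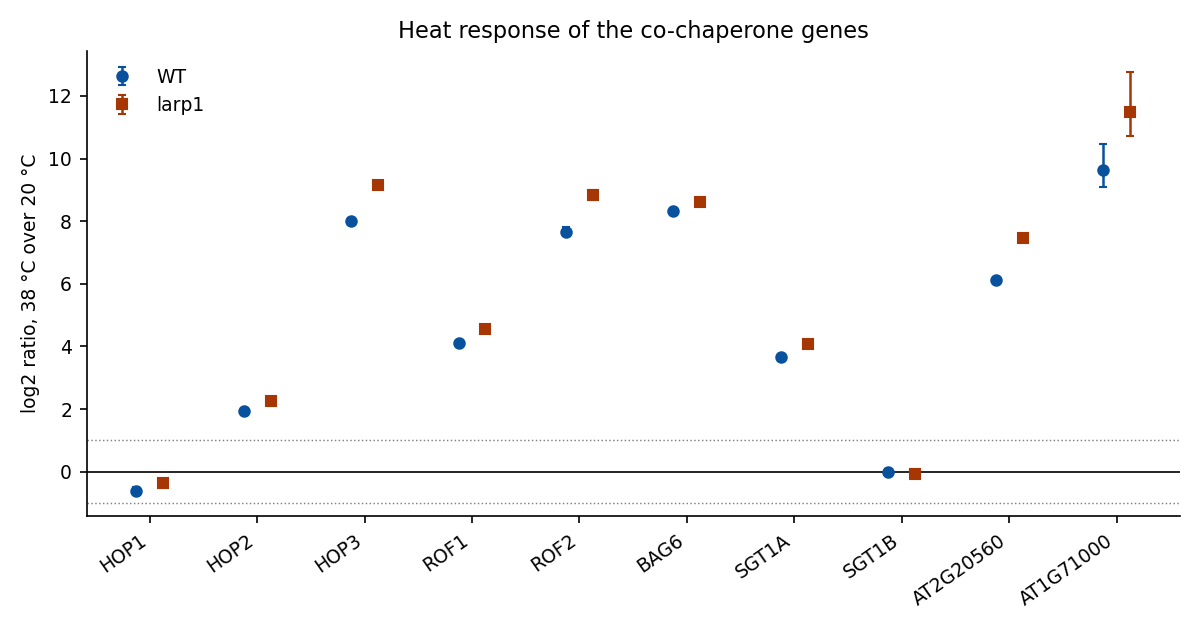
Log2 ratio of 38 °C over 20 °C for each gene in WT (circles) and larp1 (squares), with 95% counting intervals; dotted lines mark a 2-fold difference. The ratios span from -0.62 (HOP1) to 9.63 (AT1G71000) in WT and from -0.35 to 11.49 in larp1.

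BAG6 (AT2G46240, chromosome 2, 18986133 to 18990220, plus strand) encodes a calmodulin-binding BAG protein linked in Arabidopsis to programmed cell death and fungal resistance. It stood at 18.3 RPM in WT at 20 °C, 5835 RPM in WT at 38 °C, 15.6 RPM in larp1 at 20 °C and 6077 RPM in larp1 at 38 °C. It carried the most reads of the 10 genes in both heated libraries. The rise was 319-fold in WT, a log2 ratio of 8.32 [8.22, 8.42], and 389-fold in larp1, a log2 ratio of 8.61 [8.52, 8.69].

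The J-protein gene AT1G71000 (chromosome 1, 26768792 to 26770177, minus strand) had the steepest response of the group. It stood at 0.42 RPM (19 reads) in WT at 20 °C, 350 RPM in WT at 38 °C, 0.12 RPM (9 reads) in larp1 at 20 °C and 385 RPM in larp1 at 38 °C. It was thus nearly silent in both 20 °C libraries. The log2 ratio was 9.63 [9.08, 10.46] in WT and 11.49 [10.71, 12.76] in larp1, number 9 from the top of 19387 genes in WT and number 2 of 20475 in larp1. AT1G71000 passed the minimum of 50 reads, and so entered the count of 8 genes called, through its 38 °C libraries alone. Over the alternative settings its log2 ratio ran from 8.57 to 10.88 in WT and from 9.28 to 11.93 in larp1. These ranges are wider than the brackets, so its rank is only loosely set.

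The other J-protein gene, AT2G20560 (chromosome 2, 8848130 to 8850111, minus strand), stood at 27.7 RPM in WT at 20 °C, 1914 RPM in WT at 38 °C, 10.4 RPM in larp1 at 20 °C and 1847 RPM in larp1 at 38 °C. It rose 69.1-fold in WT, a log2 ratio of 6.11 [6.03, 6.19], and 178-fold in larp1, a log2 ratio of 7.48 [7.37, 7.58]. Both are J proteins but distant ones: 32.3% of 158 aligned residues are the same.

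SGT1A (AT4G23570, chromosome 4, 12299749 to 12302935, plus strand) and SGT1B (AT4G11260, chromosome 4, 6851184 to 6853912, minus strand) parted with heat. SGT1A stood at 82.7 RPM in WT at 20 °C, 1053 RPM in WT at 38 °C, 57.8 RPM in larp1 at 20 °C and 974 RPM in larp1 at 38 °C, a rise of 12.7-fold in WT and 16.8-fold in larp1. Its log2 ratio was 3.67 [3.62, 3.72] in WT and 4.07 [4.03, 4.12] in larp1. SGT1B, the copy best known for its role in immunity and auxin signalling, stood at 43.4 RPM in WT at 20 °C, 42.8 RPM in WT at 38 °C, 41.7 RPM in larp1 at 20 °C and 39.2 RPM in larp1 at 38 °C. Its log2 ratio was -0.02 [-0.11, 0.07] in WT and -0.09 [-0.17, -0.0015] in larp1, and TMM scaling moved both above 0, to 0.49 and 0.31. SGT1B was not called under any scaling, while its paralog, with 78.9% of aligned residues the same, rose over 10-fold in each genotype.

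Because of these unequal rises, heat changed which paralog supplied most of the reads in the HOP and ROF families. In the SGT1 pair it widened the lead of SGT1A. HOP2 held 53.1% of the reads of the HOP family in WT at 20 °C and 4.14% at 38 °C, where HOP3 held 95.5% [95.4, 95.6], up from 18.1% [17.0, 19.2]. In larp1 the HOP3 share went from 10.6% [9.86, 11.4] to 95.6% [95.5, 95.7]. HOP1 supplied 28.8% of the family at 20 °C in WT and 0.383% at 38 °C. ROF2 went from 14.1% [12.9, 15.3] to 65.9% [65.6, 66.1] of the ROF reads in WT and from 9.76% [8.80, 10.8] to 67.6% [67.4, 67.9] in larp1. SGT1A was the larger member of its pair already at 20 °C, with 65.6% [64.4, 66.8] in WT and 58.1% [57.0, 59.3] in larp1, and reached 96.1% in both heated libraries. The intervals are exact binomial ones at 95%, and too narrow where overlapping entries count reads repeatedly (HOP3, ROF1 and SGT1A). The shares were also taken per length of exon in which a whole read fits. In WT at 20 and 38 °C HOP3 then held 10.7% and 91.7%, ROF2 15.9% and 69.4%, and SGT1A 60.0% and 95.1%. SGT1A held 52.0% in larp1 at 20 °C on that scale, close to an even split. The leading paralog at each temperature was the same on either scale.

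**Figure D3:**
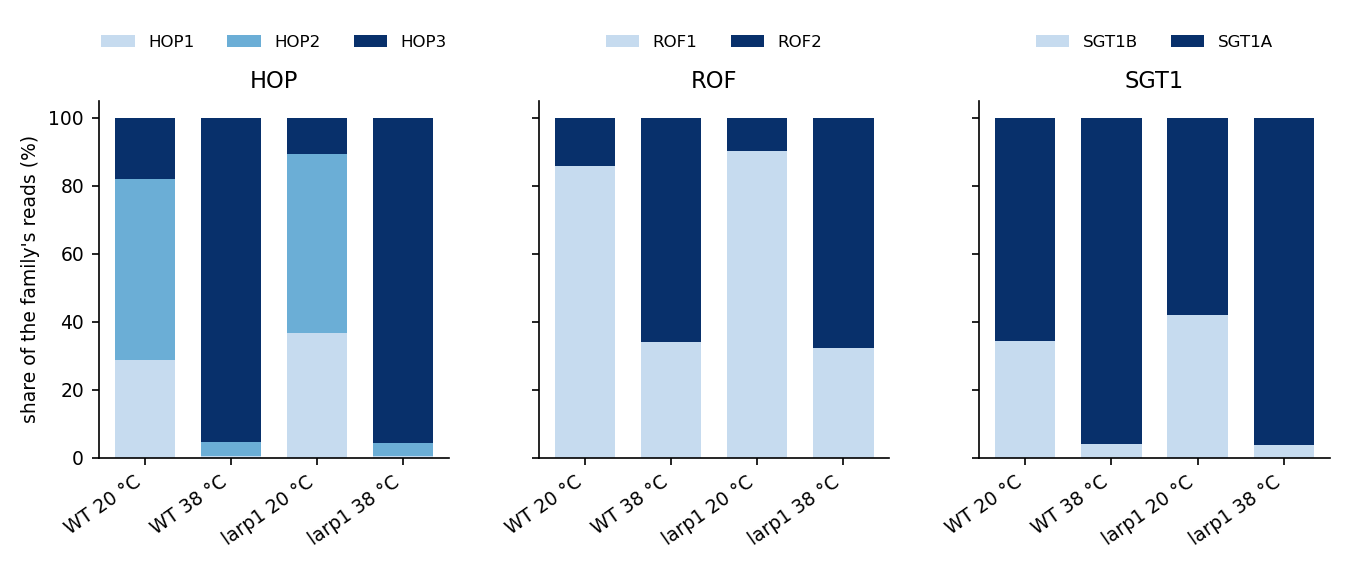
Stacked bars give the share of each family's reads (%) held by each paralog in the 4 libraries, for HOP, ROF and SGT1. The dark segment, HOP3, ROF2 or SGT1A, takes 95.5%, 65.9% and 96.1% in WT at 38 °C.

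Levels of different genes were compared per kilobase of exon in which a 100-base read fits, a scale chosen after seeing the data. In WT at 20 °C the order on that scale was SGT1A at 93.7 RPM per kilobase, SGT1B at 62.5, ROF1 at 55.0, HOP2 at 41.4, HOP1 at 23.2, AT2G20560 at 22.4, ROF2 at 10.4, HOP3 at 7.71, BAG6 at 5.24 and AT1G71000 at 0.557. The neighbours HOP1 and AT2G20560 had overlapping counting intervals, and no other neighbours in that library did. In WT at 38 °C the order began with ROF2 at 2107 RPM per kilobase, HOP3 at 1919, BAG6 at 1673 and AT2G20560 at 1548, and ended with HOP2 at 158, SGT1B at 61.7 and HOP1 at 15.0. The order in larp1 at 38 °C was the same, and in larp1 at 20 °C BAG6 and HOP3 changed places, with ROF2 at 4.76 and BAG6 at 4.47 overlapping. The place of ROF2 depended on the scale. Divided by coding length instead, HOP3 led in both heated libraries and ROF2 was number 4, at 1190 against 2984 RPM per kilobase in WT. Divided by whole exon length ROF2 was again number 4 in both, with HOP3 leading in WT and BAG6 in larp1. The nuclease step that removed ribosomal RNA can also lower very abundant transcripts. It may therefore affect an order across genes and, where a level changed greatly with heat, a ratio within a gene. Its part in the values was not tested.

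The single exon entries showed how evenly a gene responded. HOP1 had 4 compared entries between -0.66 and -0.51 in log2 heat ratio in WT. All 6 compared entries of HOP3 lay between 7.66 and 8.42, and all 3 of AT2G20560 between 6.03 and 6.26. BAG6 had 3 entries between 6.91 and 8.36, ROF1 12 between 3.73 and 4.93, ROF2 12 between 7.00 and 9.64, and AT1G71000 4 between 8.34 and 10.88. The entries at 9.64 and 10.88 had 0 and 0.09 RPM in WT at 20 °C, so these top values rest on few reads or none there. SGT1A was uneven. Of its 13 entries, 12 rose at least 2-fold in each genotype, by up to 7.76 in WT, around a median of 3.63 over the 13. Those at 7.76, 7.74, 6.22 and 5.42 in WT had only 0.11, 0.11, 0.15 and 0.26 RPM at 20 °C, so their ratios rest on few reads there. The entry that did not rise 2-fold stood at 1.41 RPM in WT at 20 °C, 1.74 RPM in WT at 38 °C, 1.64 RPM in larp1 at 20 °C and 1.91 RPM in larp1 at 38 °C. Its log2 heat ratio was 0.30 in WT and 0.22 in larp1, and it is listed for 1 of the gene's 3 annotated transcripts only. The table gives entries no coordinates, so this entry could not be placed on the gene. In SGT1B all 7 compared entries lay between -0.41 and 0.21 in WT.

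**Figure D4:**
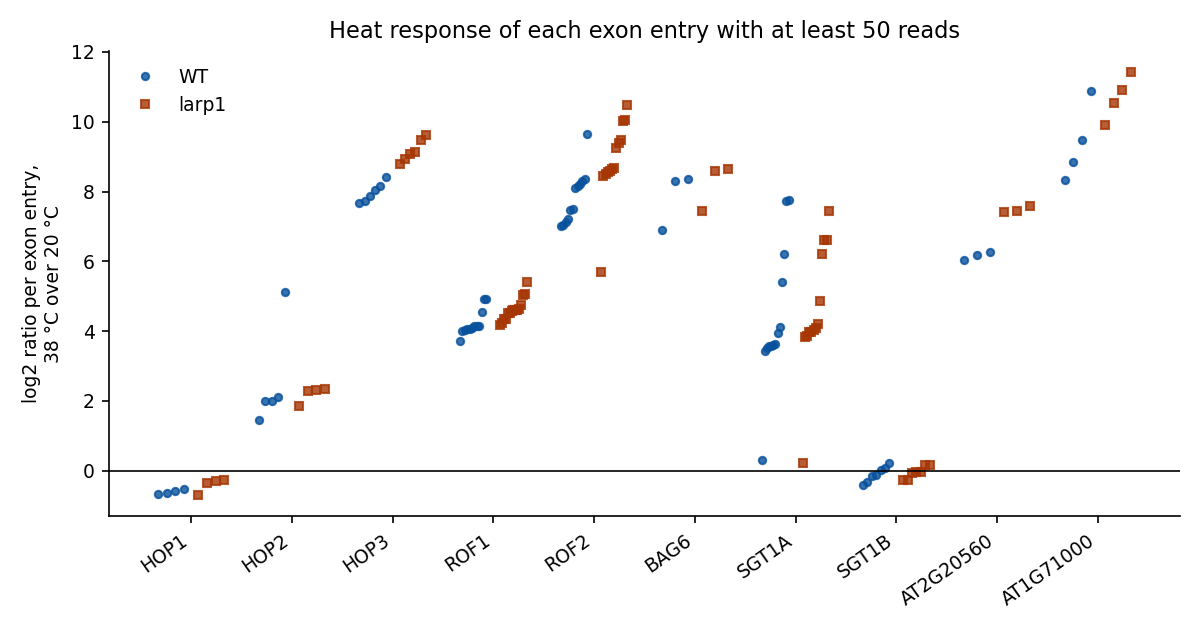
Each point is the log2 ratio of 38 °C over 20 °C of 1 exon entry with at least 50 reads, sorted within its gene, for WT (circles) and larp1 (squares). SGT1A spreads most widely in WT, from 0.30 to 7.76, and its top entry had only 0.11 RPM at 20 °C. In HOP2 1 entry, with 0.02 RPM at 20 °C, stands at 5.12 in WT.

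The authors' deposited table of genes raised in both genotypes lists 680 genes, 8 of them from this group, and gives folds from its own gene sums. In the authors' deposited table AT1G71000 has a fold of 832 in WT and 3206 in larp1, and HOP3 one of 249 and 531. BAG6 has 319 and 390 in the authors' deposited table, and ROF2 203 and 456. HOP1 and SGT1B are not listed in it.

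Heat shock elements were looked for in the 300 bases before each annotated gene start of the RefSeq assembly TAIR10.1. The motif searched was GAANNTTC or TTCNNGAA, each of which reads the same on both strands. It occurred in 2 of the 10 windows, BAG6 and AT1G71000, and in 19.3% of all 27443 windows of the same length. Longer elements of 3 alternating units occurred in AT1G71000 alone of the 10 and in 0.485% of all windows. Both stretches are shown because they hold a match, and capitals mark the matches. The AT1G71000 stretch is chr1:26770178-26770477, minus strand, and its matches lie 131 to 114 bases (3 overlapping ones) and 79 to 72 bases before the start. The BAG6 stretch is chr2:18985960-18986132, plus strand, the 173 bases outside the neighbouring gene AT2G46230, with its match 34 to 27 bases before the start.
AT1G71000: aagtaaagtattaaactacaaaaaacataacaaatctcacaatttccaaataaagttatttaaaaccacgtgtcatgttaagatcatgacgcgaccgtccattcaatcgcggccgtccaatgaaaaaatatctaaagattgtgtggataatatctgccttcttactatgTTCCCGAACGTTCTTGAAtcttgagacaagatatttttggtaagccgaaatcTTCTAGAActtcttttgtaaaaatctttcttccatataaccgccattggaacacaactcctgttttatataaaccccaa
BAG6: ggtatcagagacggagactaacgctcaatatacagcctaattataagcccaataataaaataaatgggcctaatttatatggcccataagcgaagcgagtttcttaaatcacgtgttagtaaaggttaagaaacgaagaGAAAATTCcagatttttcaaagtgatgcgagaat
The other 8 windows, those of the 6 other genes called higher among them, hold no match, which says only that these letters are absent there.

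At 20 °C the group stood lower in larp1 than in WT. Of the 9 genes compared, 3 were called lower (AT2G20560, HOP3 and ROF2) and 0 higher. Among all 20299 genes compared, 0.493% were called lower and 3.49% higher. All 9 members had a ratio below 0, against 43.2% of all genes compared. The members' median log2 ratio was -0.52, against 0.04 over all genes. The summed level of the 10 genes was 255 RPM in larp1 and 352 RPM in WT. The column of this larp1 library carries a suffix that no label explains.

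AT2G20560 differed most of the 3: 10.4 RPM in larp1 against 27.7 RPM in WT, a log2 ratio of -1.42 [-1.55, -1.29], and all 3 of its entries were at least 2-fold lower. HOP3 followed with 8.67 against 19.4 RPM, a log2 ratio of -1.16 [-1.31, -1.02], and 5 of its 6 entries were at least 2-fold lower. ROF2 stood at 4.67 against 10.2 RPM, a log2 ratio of -1.12 [-1.32, -0.92]. ROF2 rests on 348 and 468 reads and was uneven: 4 of its 6 compared entries were at least 2-fold lower, but the entry with most reads differed by -0.30 [-0.86, 0.27], so the call is lost on that entry alone, as is that of HOP3 at -0.95. At a 3-fold threshold none of the 3 was called.

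The other members differed less. ROF1 had a log2 ratio of -0.52 [-0.60, -0.45], SGT1A of -0.52 [-0.58, -0.45], HOP2 of -0.41 [-0.48, -0.33] and BAG6 of -0.23 [-0.36, -0.10]. HOP1 at -0.04 [-0.14, 0.05] and SGT1B at -0.06 [-0.14, 0.02], the same pair that was not called with heat, had intervals that include 0. AT1G71000 had too few reads at 20 °C to be compared; its log2 ratio was -1.73 [-3.10, -0.56] on 9 and 19 reads. Leaf markers also differed between these libraries, at 12878 RPM summed in larp1 and 15911 RPM in WT, and root markers less, at 50.6 and 52.6 RPM; their part in the result was not tested.

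At 38 °C the genotypes were close. Of the 10 genes, 0 were called higher and 0 lower, where 3.92% of 18528 genes were called higher and 0.2% lower. The log2 ratios of larp1 over WT ran from -0.13 [-0.22, -0.03] for SGT1B to 0.23 [0.09, 0.36] for HOP1, with a median of -0.04 against 0.14 over all genes. HOP3 stood at -0.03 [-0.04, -0.02] and AT2G20560 at -0.05 [-0.06, -0.04]. Among single exon entries, 1 of 15 compared in ROF1 and 1 of 13 in ROF2 were at least 2-fold higher in larp1. They had log2 ratios of 1.12 and 1.56 but at most 2.76 RPM in either library. No entry of ROF1 or ROF2 was 2-fold lower, while 9 of ROF1 and 4 of ROF2 stood below 0. BAG6 at 0.06, ROF2 at 0.04 and AT1G71000 at 0.14 fell below 0 under TMM scaling, at -0.10, -0.11 and -0.02. Leaf markers summed to 7361 RPM in larp1 and 11292 RPM in WT at 38 °C, and root markers to 24.5 and 18.1 RPM.

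**Figure D5:**
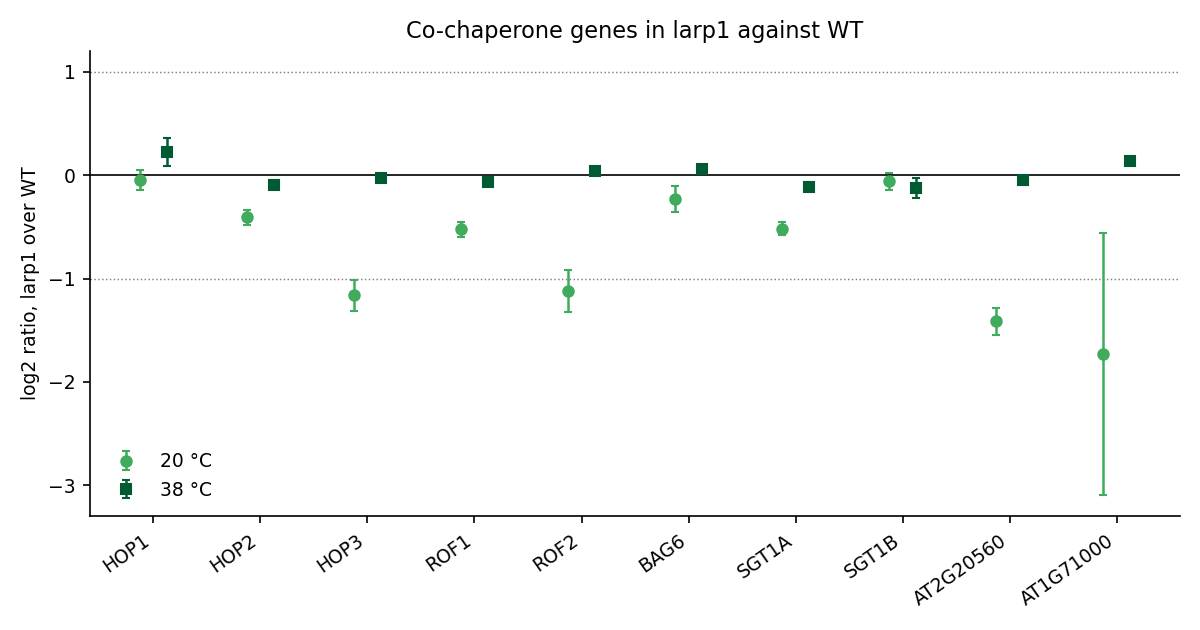
Log2 ratio of larp1 over WT for each gene at 20 °C (circles) and 38 °C (squares), with 95% counting intervals; dotted lines mark a 2-fold difference. HOP3, ROF2 and AT2G20560 lie below -1 at 20 °C, as does AT1G71000, which had too few reads there to be compared, and all 10 genes lie between -0.13 and 0.23 at 38 °C.

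The heat response of larp1 minus that of WT, on the log2 scale, restates both genotype ratios, since it equals the ratio at 38 °C minus that at 20 °C and shares their libraries. Of the 10 genes, 4 had a response at least 2-fold larger in larp1 and 0 smaller, where 2.06% of 19349 genes were called larger and 0.662% smaller. They were AT2G20560 at 1.36 [1.24, 1.49], ROF2 at 1.17 [0.97, 1.37], HOP3 at 1.13 [0.99, 1.28] and AT1G71000 at 1.87 [0.77, 2.96]. AT1G71000 passed the minimum through its 38 °C libraries alone, and nearly all of its difference comes from the 20 °C ratio on 9 and 19 reads that was not compared above, so 3 called genes rest on compared ratios at both temperatures. Under TMM scaling the share of all calls that were larger in larp1 moved from 75.7% to 61.3%, and the count of members stayed at 4. On the exon entry with most reads alone AT1G71000 stood at 0.55, ROF2 at 0.32 and HOP3 at 0.94, none of them called, and with a pseudocount of 0.5 RPM AT1G71000 stood at 0.71. ROF1 at 0.45, SGT1A at 0.40, HOP2 at 0.32, BAG6 at 0.29 and HOP1 at 0.27 were above 0 without reaching 2-fold, and SGT1B stood at -0.07 [-0.19, 0.06].

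The chaperones that these proteins serve, and other co-chaperones, were read from lists of related genes, to be set beside the median log2 heat ratio of all genes, -0.51 in WT. All 4 cytosolic HSP90 genes were called higher with heat in both genotypes, with a median of 2.73 in WT, and 3 of the 4 were called lower in larp1 at 20 °C. HSP90.1, the heat-inducible isoform, stood at 72.9 RPM in WT at 20 °C, 7393 RPM in WT at 38 °C, 16.4 RPM in larp1 at 20 °C and 7425 RPM in larp1 at 38 °C. HSP90.2 and HSP90.3, near-identical genes whose reads may be split, had log2 heat ratios of 3.19 and 2.26 in WT. Of the 5 cytosolic HSP70 genes, 4 were called higher in WT and 5 in larp1, with a median of 2.34 in WT, led by HSP70-5 at 9.42, HSP70-4 at 5.74 and HSC70-3 at 2.34. HSP70-4 and HSC70-3 were called lower in larp1 at 20 °C, at -1.53 and -1.47.

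HSP101, the disaggregase that works with HSP70 on aggregated proteins, stood at 43.2 RPM in WT at 20 °C, 10466 RPM in WT at 38 °C, 16.1 RPM in larp1 at 20 °C and 10666 RPM in larp1 at 38 °C. The heat shock factor gene HSFA2 stood at 20.5, 3677, 3.51 and 3548 RPM in the same order of libraries. Both were called lower in larp1 at 20 °C, with log2 ratios of -1.43 and -2.54. MBF1C, a heat-induced transcriptional coactivator, had log2 heat ratios of 6.85 in WT and 7.41 in larp1 and a ratio of -0.63 at 20 °C, which was not called.

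Of 8 HSP90 co-chaperone genes outside the group, with a median of -0.21 in WT, 1 was called higher in each genotype and 0 lower, the AHA1-type ATPase activator AT3G12050 at 3.93 in WT and 4.26 in larp1. By absolute size the cyclophilin gene SQN, at 0.92, and the p23 gene P23-2, at -0.71, came next in WT. Of 8 HSP70 cofactor genes, with a median of 0.47 in WT, 3 were called higher in each genotype: the nucleotide exchange factor FES1A at 5.80 and 7.28, HSP70-15 at 3.11 and 3.52, and HIP1 at 1.08 and 1.16. FES1A alone of these 8 was called lower in larp1 at 20 °C, at -1.59 [-1.73, -1.46].

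Relatives of BAG6, the ROF genes and the J-protein genes were read in the same way. Of the 6 other BAG genes, with a median of -0.48 in WT, 1 was called higher and 1 lower in each genotype. BAG5 rose by 3.81 in WT and 3.92 in larp1, and BAG1 fell by 1.48 and 1.13. BAG3 stood at -0.97 in WT. Of the 8 other FKBP genes listed, which include the HSP90 partners PAS1 and TWD1 of the list before and had a median of -0.60 in WT, 1 was called higher in each genotype, FKBP53 at 1.97 in WT and 1.46 in larp1; FKBP15-2 and FKBP43 stood at -0.95 and -0.91 in WT. In larp1 FKBP13 was called lower at -1.14. Of the 10 other cytosolic J-protein genes, with a median of 0.33 in WT, 3 of 9 compared were called higher in WT and 3 of 8 in larp1: ATJ3 at 2.37 and 2.93, ATJ2 at 1.66 and 2.13, and AT4G28480 at 1.61 and 1.99. Under TMM scaling each of these heat ratios is higher by the shift given above, so a value in WT between -0.51 and 0 turns sign. BAG1 then lost its call in both genotypes, at -0.97 and -0.74, and FKBP13 in larp1, at -0.75. SQN gained one in both, at 1.42 and 1.26, and HSC70-1 (1.44), FES1C (1.03) and AT1G59725 (1.34) gained one in WT.

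For each member, the nuclear genes nearest in pattern were found among 19039 genes with at least 100 reads in 1 library, as the smallest distance over 3 log2 ratios (heat in WT, heat in larp1, larp1 over WT at 20 °C). HOP3 was nearest to AT1G54050 at a distance of 0.32 and HSP101 at 0.36, and ROF2 to AT1G54050 at 0.39 and HOP3 at 0.47. AT2G20560 lay nearest to FES1A at 0.40 and the HSP70 gene AT3G12580 at 0.41. For AT1G71000 the rule gave the ascorbate peroxidase gene APX2 at 0.21 and HSP17.6II at 1.26, but no nearness is read from these: AT1G71000 had 19 and 9 reads at 20 °C and APX2 0.02 and 0 RPM, so their genotype ratios follow the pseudocount. BAG6 lay nearest to AT1G03070 at 0.32 and the small heat shock protein gene HSP18.2 at 0.48, ROF1 to AT5G49920 at 0.31 and AT3G12050 at 0.35, and HOP2 to AT1G23180 at 0.078 and AT1G58561 at 0.16. SGT1A lay nearest to AT2G07707 at 0.15 and AT2G07798 at 0.25, genes that stayed at or below 9.36 RPM. Organelle genes were left out by locus name only, so reads from nuclear copies of organelle DNA were not set apart. Whether AT2G07707 and AT2G07798 are such copies was not tested. HOP1 lay nearest to AT2G31390 at 0.0072 and AT3G07910 at 0.033, and SGT1B to AT5G26800 at 0.024 and UBC36 at 0.034.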

How the data were processed

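RNA of 4 pools of plantlets was sequenced, 1 library a group. A duplex-specific nuclease removed ribosomal RNA, zinc broke the RNA, and single reads of 100 bases were made, per the labels' protocols. The submitters' processing notes name BWA 0.5.9 and TAIR10. How reads were counted, and whether by strand, is not given in the sources used here.

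Deposited by the authors for each exon entry is a signal that the file header calls RPM, rounded to 2 decimals and without coordinates: 181379 entries for 25819 genes, of which 132172 are distinct within their gene. The columns sum to between 1056660 and 1090376, above what RPM of separate features can reach, since entries repeat and overlap, so the values were treated as a signal. Values were whole multiples of the worth of 1 read, within 0.0051 RPM, for at least 99.9994% of values above 0. Those steps gave the reads behind each value, which served for minimums and intervals only, with no count model. An unexplained suffix, bis, marks the column of larp1 at 20 °C, which is also the deepest library. The genotype ratios at 20 °C, the heat ratios of larp1 and the differences of heat response all rest on this column. The authors' deposited list holds a ratio (fold) of 38 °C over 20 °C per gene.

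The gene value was the sum of distinct entries. Reads in overlapping alternative exons (HOP3, ROF1, SGT1A) then count repeatedly, and PCR may have copied molecules, so intervals are too narrow and cover counting error only. Ratio intervals were conditional binomial ones, and the interval of the difference of heat responses was a normal one from the 4 read counts. A count of 0 allows up to 3 reads, or 0.0403 RPM in the deepest library and 0.0704 RPM in the shallowest.

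Gene coordinates, exons, proteins and upstream windows come from the RefSeq assembly TAIR10.1, matched by locus for all 10 genes; the deposited files hold no coordinates of their own.

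Text names all 10 members, up to 3 genes of each related list with the largest absolute log2 heat ratio in WT, HSP90.1, HSP101, HSFA2, and the 2 nearest genes in pattern; single genes beyond that rule (FKBP13, HSC70-1, FES1C, AT1G59725, SCR, SHR, COBL9, WOX5, PAS1, TWD1) were named after their values were seen. The members and the lists were chosen with earlier results of these data known. As alternatives the libraries were scaled by TMM, by median-of-ratios factors, by totals that leave out organelle genes or by totals that leave out the 100 highest genes. Others were a minimum of 10 reads, no minimum, a larger pseudocount (0.5 RPM), all exon entries, the entry with most reads alone, and a 3-fold threshold. The work used Biopython 1.88, matplotlib 3.10.9, scipy 1.17.1, pandas 2.3.3 and numpy 2.4.6 under Python 3.11.15.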

Additional observations from a re-analysis of the deposited data

How the results depend on the processing

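No paired analysis was possible because each group holds 1 library. The count of 8 members called higher with heat was the same under all 10 alternatives in each genotype, and no called ratio turned sign under any of them. Of the genotype results, the 3 members called lower in larp1 at 20 °C became 1 with the entry with most reads alone and 0 at a 3-fold threshold, and 4 with a minimum of 10 reads or none, when AT1G71000 joined. The 4 members with a larger heat response in larp1 became 1, AT2G20560, with the entry with most reads alone, and 3 with the larger pseudocount. At a 3-fold threshold 1 remained, AT1G71000, which had only 9 reads in larp1 and 19 in WT at 20 °C. The cause was not tested. Over all genes, median-of-ratios scaling called 1389 higher and 2100 lower with heat in WT, and 1324 and 1916 in larp1, against 826 and 4840, and 857 and 4051. TMM scaling called 1332 and 2183 in WT and 1245 and 2044 in larp1. At 38 °C the 37 genes called lower in larp1 became 69 with TMM and 72 with median-of-ratios factors. With a minimum of 10 reads the calls in larp1 against WT went from 708 higher and 100 lower to 1123 and 258 at 20 °C, and from 726 and 37 to 1212 and 125 at 38 °C, and those of the difference from 399 and 128 to 627 and 282; with no minimum they were 1169 and 340, 1287 and 144, and 695 and 355. The larger pseudocount left 506 and 66 at 20 °C and 157 and 49 for the difference. At a 3-fold threshold the 5 comparisons had 540 and 1932, 570 and 1450, 360 and 26, 359 and 11, and 96 and 22.

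Family shares moved by more than their counting interval. With all exon entries summed, HOP3 held 26.0%, 97.0%, 16.3% and 97.1% of its family in the order WT at 20 and 38 °C, then larp1 at 20 and 38 °C, ROF2 8.99%, 54.3%, 6.25% and 56.4%, and SGT1A 81.5%, 98.3%, 76.1% and 98.3%. Per kilobase of exon where a read fits, an alternative chosen after seeing the data, the shares were 10.7%, 91.7%, 6.19% and 91.9% for HOP3, 15.9%, 69.4%, 11.3% and 71.2% for ROF2, and 60.0%, 95.1%, 52.0% and 95.2% for SGT1A. Per kilobase of coding length, 3, 3, 4 and 3 of the 10 members kept their place in the order of RPM in those libraries, and per kilobase of exon where a read fits, also chosen after seeing the data, 4, 6, 3 and 6 did. Depth limits AT1G71000 most, with 9 and 19 reads at 20 °C.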
